A study of Mus musculus with 2 samples.

Results

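The genes described here are those of the oxidative phosphorylation complexes I to V in a mouse macrophage-like line with and without knockdown of Lamtor1. They were chosen by name alone, from the array's own gene names: names that start with Nduf, Uqcr or Atp5, the names Sdha, Sdhb, Sdhc and Sdhd, and Cox followed by 4, 5, 6, 7 or 8. This gave 88 genes of 31823 gene names on the array, read by 118 probes. Of the 88 genes, 79 encode subunits of the complexes, 4 are assembly factors of complex I with the prefix Ndufaf, 2 belong to the Ndufa4 family, and 3 (Atp5s, Atp5sl and Cox4nb) carry a matching name without being subunits.

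The series compared Lamtor1 knockdown RAW264.7 cells with control RAW264.7 cells, 1 array each, and its stated purpose was to examine the transcriptional activity of TFEB. RAW264.7 is an established mouse line, and Lamtor1 anchors the Ragulator complex to lysosomes, where it serves as a platform for Rag GTPases and mTORC1. Per the labels, the knockdown used a lentiviral mixture of short hairpin vectors against Lamtor1, followed by limiting dilution. The labels attach the same protocol to the control cells. Neither the treatment of the control cells nor the clonality of either population can be told from the sources used here.

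Oxidative phosphorylation is the route by which mitochondria make ATP. Complex I takes electrons from NADH and complex II from succinate, both pass them through ubiquinone to complex III, cytochrome c carries them on to complex IV, and the proton gradient built on the way drives complex V, the ATP synthase. Most subunits are encoded in the nucleus, while a small catalytic set is encoded in mitochondrial DNA, and in macrophages the use of this pathway shifts with the activation state of the cell.

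Values below are levels, the log2 of a probe's processed signal relative to the 75th percentile of its own array, and differences, the knockdown level minus the control level. With 1 array per group there was no test and no p-value, and the differences compare these arrays, not the conditions. The spread of replicate spots of the same probe had an SD of 0.0447 in log2 (221 probes), which covers spotting and scanning and not cultures or labelling. Differences up to 0.0894 in size, 2 SD, are within this spot noise. The arrays shared a slide and a scan date. On the knockdown array 22745 spots (52.9%) and on the control array 22929 (53.3%) were well above background. Lamtor1 itself had a level of -0.43 in knockdown cells and 4.10 in control cells, 23.1-fold lower in the knockdown. All 8 macrophage markers examined were above background on both arrays, against 1 of 5 for each of the fibroblast, muscle and lymphocyte lists.

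Of the 88 genes, 84 were well above background on both arrays. The remaining 4, Cox7b2, Cox8b, Cox8c and Ndufa4l2, were not well above background on either, so no fold is given for them. They are isoforms known mainly from testis, muscle or, for Ndufa4l2, hypoxic cells.

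The nuclear-encoded subunits had close to the same signal in knockdown and control cells. Over the 76 measured subunits the median difference was -0.07, with quartiles of -0.16 and 0.08, against a median of -0.05 and quartiles of -0.37 and 0.31 over all 13773 measured genes. None (0) was higher by 0.5 or more, where 17.5% of all measured genes were, and 3 were lower by 0.5 or more, where 19.1% were. These 3 are isoforms of complex IV. Ndufa4, now counted as a subunit of complex IV, was kept apart from all counts of subunits given here. It differed by -0.58, with 3.58 in knockdown cells and 4.17 in control cells. In either direction, 36.6% of all measured genes differed by 0.5 or more. Among the 71 subunits whose mean level over both arrays was 2 or higher, 0 differed by 0.5 or more, and their differences ran from -0.45 to 0.40. Of all measured genes at such a mean level, 24.2% did. With the cut set on the control level alone, Cox7a1 (-0.70) came in and 1 of 72 subunits differed by 0.5 or more, where 23.8% of all such genes did. At a mean level of 4 or higher the count was 0 of 60 subunits, where the share of all such genes was 20.0%. The subunits within spot noise numbered 24 of 76, where the share over all measured genes was 14.8%. At a mean level of 2 or higher they numbered 23 of 71, where the share of all such genes was 18.8%. At 4 or higher they numbered 21 of 60, where that share was 20.6%.

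Small differences of the subunits leaned below 0, but their sign depended on the scaling. With the 75th percentile, 49 of 76 subunits lay below 0, where 54.3% of all measured genes did. At a mean level of 2 or higher, 45 of 71 subunits did, where the share of all such genes was 52.8%. At a mean level of 4 or higher, 39 of 60 subunits did, near the 60.5% of all such genes. Scaling each array to its median moves every gene up by the same amount, and then 33 of the 76 subunits and 46.1% of all measured genes lay below 0. Relative to the median of all genes, the complex medians were the same under both scalings, -0.10 for complex III and -0.08 for complex IV. No direction is therefore given for a complex as a whole, and members are called higher or lower where their own difference kept its sign under every scaling tried, as 60 of the 84 measured members did.

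**Figure D1:**
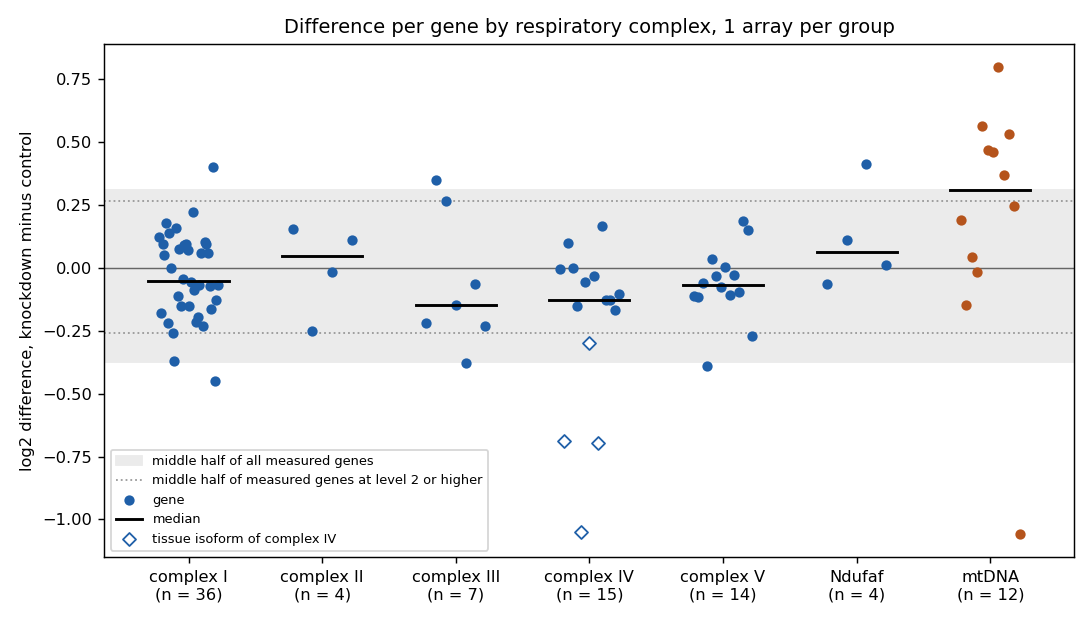
Log2 difference, knockdown minus control, of every measured gene of complexes I to V, of the Ndufaf assembly factors and of the genes of mitochondrial DNA (mtDNA); 1 point is 1 gene, and black lines are medians. Grey shading and dotted lines show the quartiles of all measured genes and of those at a mean level of 2 or higher. The nuclear subunits drawn lie between -0.45 and 0.40 apart from 3 tissue isoforms of complex IV. Ndufa4, at -0.58, was kept apart and is not drawn.

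Complex I, the NADH dehydrogenase, had 36 measured subunits with a median difference of -0.05. Of these, 19 lay below 0, where 54.3% of all measured genes did. The 7 nuclear core subunits, which hold the flavin and iron-sulfur clusters and shape the quinone site, had a median of -0.13, and the 29 accessory subunits one of -0.05. The lowest and the highest difference of the complex were both in core subunits. Ndufv1, which binds NADH and the flavin, had a level of 4.87 in knockdown cells and 5.31 in control cells, a difference of -0.45, or 1.36-fold lower. Ndufs8, which carries iron-sulfur clusters near the quinone site, had a level of 3.90 in knockdown cells and 3.50 in control cells, a difference of 0.40, or 1.32-fold higher. Both differences were several times the spot noise and kept their sign under every scaling. The genes are neighbours: in the mm9 build the Ndufv1 probe lies at chr19:4007508-4007567 and the Ndufs8 probe at chr19:3911177-3911236, 96.3 kb apart and both on the minus strand. Whether a probe lies in an exon of the coding part or in a UTR was not analysed here.

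Other core subunits differed less. Ndufs7, at the quinone site, had 5.34 in knockdown cells and 5.51 in control cells, a difference of -0.16. Ndufv2, an iron-sulfur subunit of the NADH arm, differed by -0.13, while Ndufs3 and Ndufs1 differed by 0.10 and 0.06. These core subunits thus lay on both sides of 0, with Ndufs1 within spot noise.

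Among the accessory subunits, which surround the core and are needed for its assembly and stability, the lowest were Ndufa7 and Ndufa6. Ndufa7 had 5.11 in knockdown cells and 5.48 in control cells, a difference of -0.37. Ndufa6 had 3.93 in knockdown cells and 4.19 in control cells, a difference of -0.26. The highest were Ndufb7, with 5.81 in knockdown cells and 5.59 in control cells, and Ndufa13, with 6.45 in knockdown cells and 6.27 in control cells, differences of 0.22 and 0.18. All 4 kept their sign under every scaling, and none reached 0.5.

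Because the series asked about TFEB, the promoters of the subunits were searched for the CLEAR element that TFEB is known to bind, and for motifs of factors long tied to respiratory genes. A RefSeq promoter, 300 bases around a gene's start and mostly before it, in the GRCm38.p6 build, was matched for 63 of the 76 measured subunits. Shown here are the promoter of the single subunit with a CLEAR match, those of the neighbours Ndufv1 and Ndufs8, and that of Uqcrc1 as an example with a motif of the factor NRF1. Capitals mark CLEAR in Ndufa7, the E-box in Ndufv1, the ETS motif read on the opposite strand in Ndufs8, and a pair of NRF1 motifs in Uqcrc1. Of the starts that RefSeq lists for Ndufa7, the first is shown, and both windows hold the CLEAR match.
Ndufa7 promoter, chr17:33824322-33824621, plus strand: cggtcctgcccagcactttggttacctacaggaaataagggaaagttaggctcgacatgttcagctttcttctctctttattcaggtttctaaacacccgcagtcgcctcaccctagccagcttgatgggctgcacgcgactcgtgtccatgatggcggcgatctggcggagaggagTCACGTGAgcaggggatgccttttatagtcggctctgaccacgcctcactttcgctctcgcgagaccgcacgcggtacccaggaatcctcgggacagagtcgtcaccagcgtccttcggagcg
Ndufv1 promoter, chr19:4012706-4013005, minus strand: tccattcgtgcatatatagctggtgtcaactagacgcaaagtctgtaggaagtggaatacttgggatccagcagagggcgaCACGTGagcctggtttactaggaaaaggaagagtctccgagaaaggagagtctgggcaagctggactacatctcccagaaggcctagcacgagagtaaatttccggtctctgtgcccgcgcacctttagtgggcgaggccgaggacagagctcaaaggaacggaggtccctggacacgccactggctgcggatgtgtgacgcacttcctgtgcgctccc
Ndufs8 promoter, chr19:3912725-3913024, minus strand: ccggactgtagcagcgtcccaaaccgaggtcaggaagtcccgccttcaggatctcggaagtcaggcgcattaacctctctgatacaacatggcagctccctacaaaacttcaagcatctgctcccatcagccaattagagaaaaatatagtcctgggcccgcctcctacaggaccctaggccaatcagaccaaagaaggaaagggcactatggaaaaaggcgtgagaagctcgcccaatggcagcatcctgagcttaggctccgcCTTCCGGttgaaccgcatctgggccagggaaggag
Uqcrc1 promoter, chr9:108936398-108936697, plus strand: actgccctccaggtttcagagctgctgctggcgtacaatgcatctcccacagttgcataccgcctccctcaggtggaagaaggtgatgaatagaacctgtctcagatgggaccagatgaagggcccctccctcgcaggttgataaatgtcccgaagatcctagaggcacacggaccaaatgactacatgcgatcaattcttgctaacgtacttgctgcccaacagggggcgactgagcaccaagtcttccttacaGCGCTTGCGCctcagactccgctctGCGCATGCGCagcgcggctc

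The CLEAR element was searched as TCACGTGA on both strands and was found in 1 of 63 subunit promoters (1.59%), that of Ndufa7, against 1.12% of the promoters of all 27025 genes and 2.01% of the 10612 measured genes with a promoter. Ndufa7 was lower in the knockdown, as given above. The E-box CACGTG, which lies inside CLEAR, was found in 5 subunits (7.94%), against 8.09% of all genes and 11.4% of measured genes. The NRF1 motif, searched as GCGC, any 2 bases and GCGC again, was in 19 subunits (30.2%), against 7.00% of all genes and 14.0% of measured genes. The YY1 motif, AAGATGGC, was in 10 subunits (15.9%), against 3.19% of all genes and 5.19% of measured genes. The ETS motif, CCGGAAG, which GABP binds, was in 16 subunits (25.4%), against 9.93% of all genes and 19.2% of measured genes. A match says only that these letters occur in the window.

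Complex II, succinate dehydrogenase, had all 4 subunits measured, with differences between -0.25 and 0.16 and a median of 0.05. Sdhb, the iron-sulfur subunit, had 5.47 in knockdown cells and 5.72 in control cells, a difference of -0.25, and its second probe gave -0.35. Sdha, the flavoprotein that oxidises succinate, had 4.35 in knockdown cells and 4.19 in control cells, a difference of 0.16. Of the membrane anchors, Sdhd differed by 0.11, with 5.23 in knockdown cells and 5.12 in control cells. Sdhc, the other anchor, had 4.21 in knockdown cells and 4.22 in control cells, and its difference of -0.02 was within spot noise. The subunits of this small complex thus did not share a direction.

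Complex III, the cytochrome bc1 complex, had 7 measured subunits with a median of -0.15, and 5 lay below 0, where 54.3% of all measured genes did. Uqcrfs1, the Rieske iron-sulfur protein that passes electrons from ubiquinol, was the lowest, with 3.88 in knockdown cells and 4.26 in control cells, a difference of -0.38. Uqcrb, which lies beside the ubiquinone site, was the highest, with 5.17 in knockdown cells and 4.82 in control cells, a difference of 0.35, and its 3 probes ran from 0.24 to 0.35. Of the large core proteins, Uqcrc1 had 3.88 in knockdown cells and 3.61 in control cells, a difference of 0.26. Uqcrc2, its partner, had 4.49 in knockdown cells and 4.64 in control cells, a difference of -0.15. The array carried 10 spots of the Uqcrc2 probe, and every spot was lower in the knockdown, with differences from -0.21 to -0.10. Uqcrq and Uqcr (now Uqcr11), small accessory subunits, differed by -0.23 and -0.22, and Uqcrh, the hinge protein, by -0.06.

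Complex V, the ATP synthase, had 14 measured subunits with a median of -0.07, and 10 lay below 0, where 54.3% of all measured genes did. Scaled to the array median, the median of the complex was 0.024. In the F1 head, where ATP is made, the catalytic pair stayed close to 0: Atp5b had 6.86 in knockdown cells and 6.98 in control cells, a difference of -0.12, and Atp5a1 had 5.19 in knockdown cells and 5.31 in control cells, a difference of -0.11. Atp5d, in the central stalk, was the lowest of the complex, with 4.58 in knockdown cells and 4.97 in control cells, a difference of -0.39. The other central stalk genes, Atp5c1 and Atp5e, differed by -0.06 and 0.03 and were within spot noise.

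The 4 genes of the peripheral stalk, which holds the head still against the rotor, had a median of -0.07. The lowest of them was Atp5o, which joins this stalk to the head, with 3.82 in knockdown cells and 4.10 in control cells, a difference of -0.27. The c ring, the rotor turned by protons, is made from several genes for the same protein: Atp5g2 differed by -0.07 and Atp5g3 by 0.0018, both within spot noise. Atp5k and Atp5l, membrane subunits that help the synthase form dimers, were the highest of the complex. Atp5k had 5.48 in knockdown cells and 5.30 in control cells, a difference of 0.18, and Atp5l had 6.28 in knockdown cells and 6.13 in control cells, a difference of 0.15, with 5 probes from 0.15 to 0.34.

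Complex IV, cytochrome c oxidase, showed the widest differences, and the 3 largest lay in its tissue isoforms. Ndufa4, kept apart and described below, came next at -0.58. The 10 ubiquitous nuclear subunits had a median of -0.05 and ran from -0.17 to 0.16. The 4 tissue isoforms above background had a median of -0.69 and were all lower in the knockdown under every scaling. All 4 had a mean level under 2. Of all measured genes 36.6% differed by 0.5 or more, and of those at a mean level of 2 or higher 24.2%. Cox6a2, Cox6b2 and Cox7a1 lie on chromosome 7, whose measured genes had a median of -0.12, the lowest of the chromosomes. The part of low signal or of the chromosome in these values was not tested. Each isoform is given beside its ubiquitous counterpart.

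Cox6a2, the heart and skeletal muscle isoform, had -2.85 in knockdown cells and -1.80 in control cells, a difference of -1.05, or 2.07-fold lower. It was the member with the largest difference and the 1 subunit lower by 2-fold or more, where 8.35% of all measured genes were, and 17.4% differed by that much in either direction. Its ubiquitous counterpart Cox6a1 had 7.62 in knockdown cells and 7.77 in control cells, a difference of -0.15. Cox4i2, an isoform known from lung and low oxygen, had -2.62 in knockdown cells and -1.94 in control cells, a difference of -0.69. Its counterpart Cox4i1 had 7.23 on both arrays. With normexp background correction the differences of Cox6a2 and Cox4i2 were -0.85 and -0.50.

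Cox7a1, the muscle isoform of this family, had 1.45 in knockdown cells and 2.15 in control cells, a difference of -0.70. Cox7a2, the ubiquitous form, had 5.09 in knockdown cells and 4.93 in control cells, a difference of 0.16, and Cox7a2l, which joins complexes III and IV into supercomplexes, differed by -0.13. Cox6b2, a testis isoform, had -3.17 in knockdown cells and -2.87 in control cells, a difference of -0.30, and its counterpart Cox6b1 differed by -0.06. Cox7b and Cox8a, whose tissue isoforms were dim, differed by -0.13 and -0.11, and Cox5a, at 0.10, was with Cox7a2 the highest of the ubiquitous subunits. Markers of muscle were at background for 4 of 5 genes, and the fifth differed by -0.29. The part of such cells in the isoform values was not tested.

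**Figure D2:**
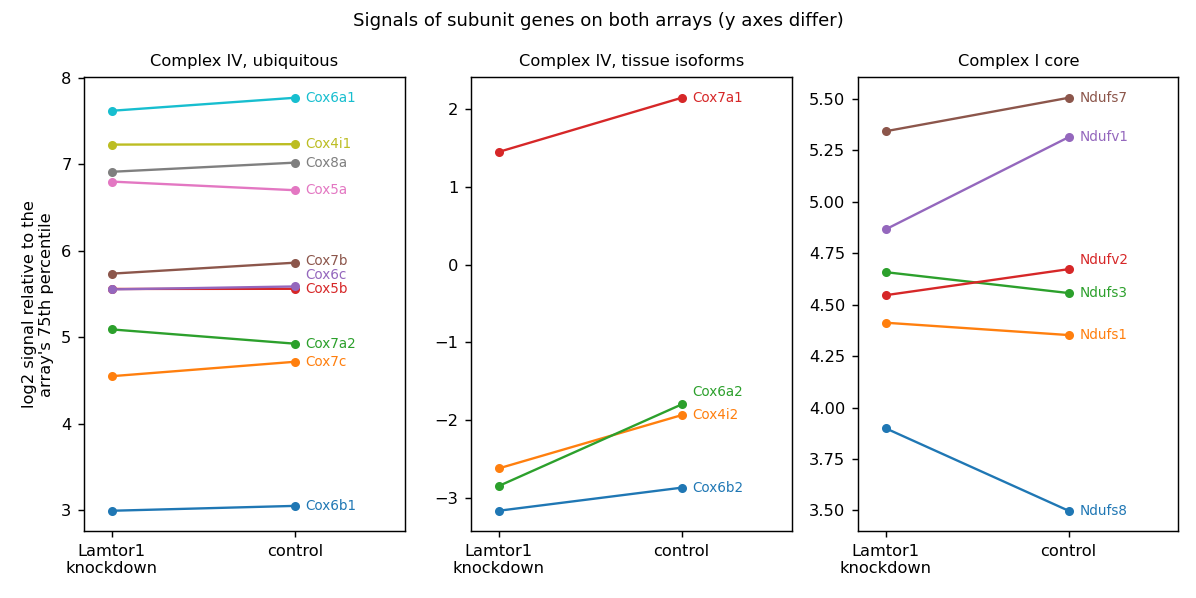
Levels of complex IV subunits (ubiquitous forms and tissue isoforms) and of the complex I core subunits named in the text, as log2 signal relative to the array's 75th percentile, in Lamtor1 knockdown cells (left end of each line) and control cells (right end), 1 array each; y axes differ between panels. Lines of the ubiquitous subunits are nearly flat, those of the 4 isoforms all end lower in the knockdown, and among those core subunits Ndufv1 and Ndufs8 slope in opposite directions.

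Ndufa4, which was named for complex I and is now counted as a subunit of complex IV, was kept apart from both. It had 3.58 in knockdown cells and 4.17 in control cells, a difference of -0.58, and over the scalings tried the difference ran from -0.62 to -0.49. The 3 genes that match by name alone differed by -0.67 for Atp5sl (now Dmac2, a complex I assembly factor), by -0.21 for Atp5s (now Dmac2l) and by 0.40 for Cox4nb (now Emc8, of the endoplasmic reticulum membrane complex).

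The Ndufaf genes encode factors that build complex I and do not remain in it. Ndufaf3 had 1.44 in knockdown cells and 1.03 in control cells, a difference of 0.41. Ndufaf2 had 1.77 in knockdown cells and 1.66 in control cells, a difference of 0.11. Ndufaf1 had 1.53 in knockdown cells and 1.59 in control cells, and Ndufaf4 had 1.76 in knockdown cells and 1.74 in control cells, both within spot noise. The median of the 4 was 0.06. A further 4 factors stand on the array under older names and so escape the choice by name: Ndufaf5 differed by -0.45, Ndufaf7 by -0.38, Ndufaf6 by -0.19 and Ndufaf8 by -0.01. With them the median of 8 factors was -0.04, so the sign of the group depended on which names were counted. Of the subunits under older names, Ndufb1 differed by 0.16, Atp5md by 0.06, Atp5mpl by -0.15 and Uqcr10, of complex III, by -0.28.

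Probes of the same gene mostly told the same story. Of 23 members with more than 1 probe above background, 20 had all probes on 1 side of 0, and the median range between probes was 0.0835. Some of these probes overlap in position, as for the 3 of Uqcrb and the 5 of Atp5l, so they are not independent readings. The same share over all genes of the array was not computed. The widest ranges were in Ndufv3 and Ndufb11, accessory subunits of complex I, where a dim probe differed from the bright one. The dim probe of Ndufv3 had -0.09 in knockdown cells and 0.68 in control cells, a difference of -0.76, while the bright one gave -0.07. The dim probe of Ndufb11 had -2.20 in knockdown cells and -1.58 in control cells, a difference of -0.62, while the bright ones gave -0.05 each. The first 30 bases of each 60-base probe are shown, since dim and bright probes read different stretches of the gene; positions are of the whole probe in mm9.
Ndufv3 dim, probe at chr17:31665148-31665207, plus strand: gtgccagaaggaggctcccaggtccaggag
Ndufv3 bright, probe at chr17:31668209-31668268, plus strand: ggtagaccccgatgttggttcccatgaatc
Ndufb11 dim, probe at chrX:20194630-20194689, minus strand: ttccctacagggccatctagatgtcaccgc
Ndufb11 bright, probe at chrX:20192453-20192512, minus strand: tcatccgctgcttgttatttacctggttcc

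A second probe of Ndufaf4 gave -0.50 beside 0.01 for the brightest, and a second probe of Atp5c1 gave 0.31 beside -0.06. Which transcripts the dim probes read was not tested. Many respiratory subunits have processed pseudogenes, and whether a probe also binds their RNA was not tested.

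**Figure D3:**
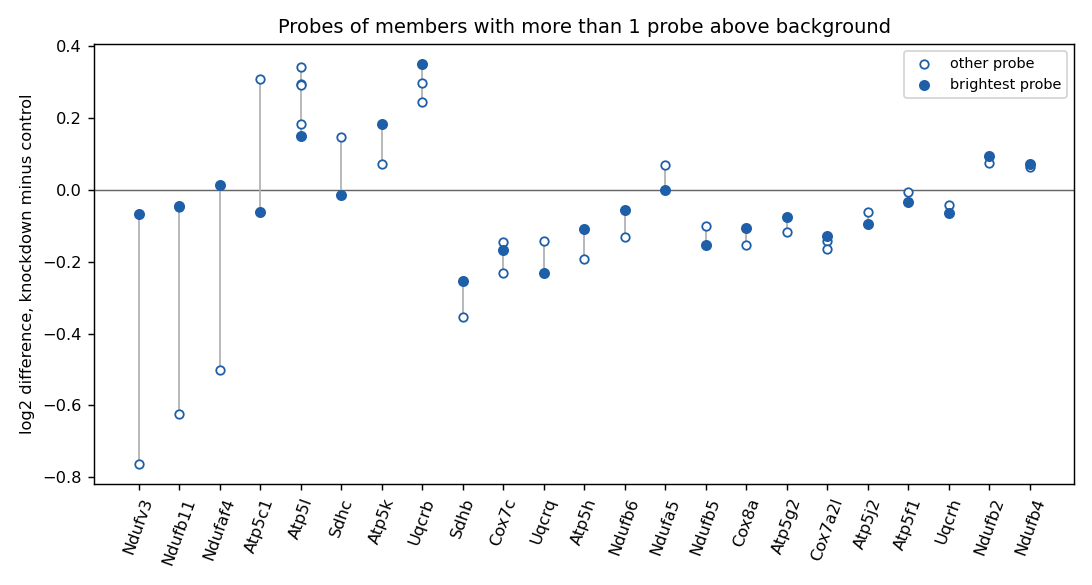
Log2 difference, knockdown minus control, of each probe above background on both arrays, for the 23 members with more than 1 such probe, ordered by their range; filled points are the brightest probe of a gene and open points the others. The 3 widest ranges, in Ndufv3, Ndufb11 and Ndufaf4, come from 1 lower probe each.

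The subunits encoded in mitochondrial DNA are not among the 88 genes, and were added after their values were seen because they complete the same complexes. The 12 read here had a median difference of 0.31. For complex I, 6 of the 7 genes were higher in the knockdown, where 45.7% of all measured genes were above 0: ND3 had 5.51 in knockdown cells and 4.71 in control cells, a difference of 0.80, and ND4L, ND1, ND2, ND4 and ND5 differed by 0.53, 0.47, 0.46, 0.37 and 0.24. The exception was ND6, which is the 1 gene of these on the opposite strand, with -0.28 in knockdown cells and 0.78 in control cells, a difference of -1.06. The median of the 6 without ND6 was 0.46, and over the scalings it ran from 0.42 to 0.56. CYTB, the catalytic subunit of complex III, had 6.78 in knockdown cells and 6.22 in control cells, a difference of 0.56. The catalytic core of complex IV did not share this: COX1 differed by -0.15, COX2 by 0.04 and COX3 by -0.02. ATP8, of complex V, differed by 0.19.

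Genes of chromosome 9 stood higher as a whole, and 6 measured members lie there. All 6 were above 0: Ndufaf3, Uqcrc1, Cox7a2, Atp5l, Sdhd and Cox5a, with a median of 0.16. Of all 726 measured genes of chromosome 9, 62.9% were above 0 and the median was 0.19, while the medians of the other chromosomes ran from -0.12 to -0.0039. Elsewhere 25 of 78 members were above 0, where 44.7% of all measured genes outside chromosome 9 were. The members of chromosome 9 thus differed by about as much as their chromosome did, and the part of the chromosome in their values was not tested.

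**Figure D4:**
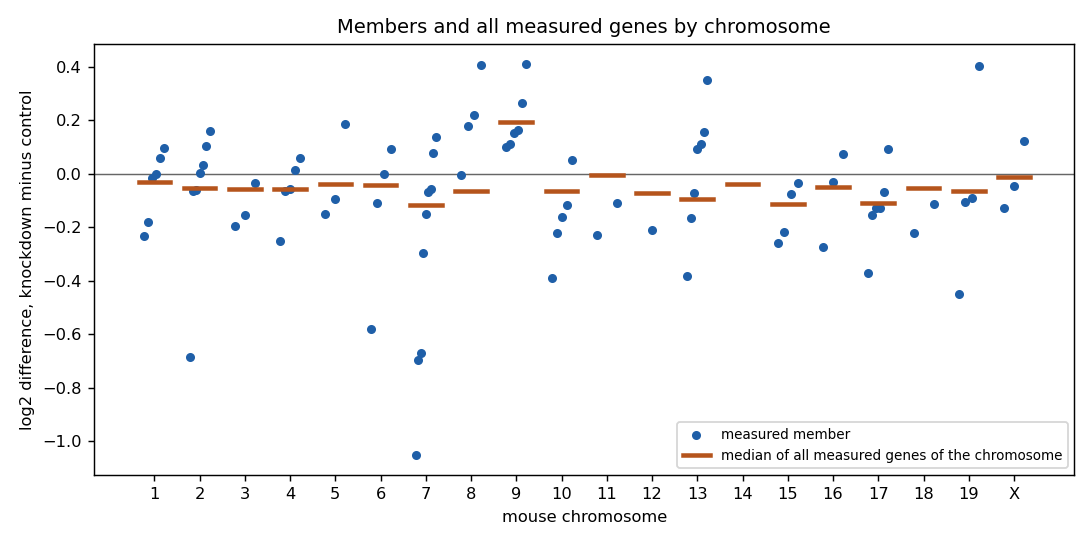
Log2 difference, knockdown minus control, of the measured members by mouse chromosome (points), with the median of all measured genes of each chromosome (bars). On chromosome 9 all 6 members and the chromosome's median of 0.19 lie above 0, and the other chromosome medians lie below 0.

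Beside the subunits, the genes that build the complexes and feed them were counted from lists. Of 21 measured assembly factors of complex IV, 14 were above 0, where 45.7% of all measured genes were, with a median of 0.16. The count ran from 13 to 17 over the scalings. Coa5 had 2.33 in knockdown cells and 1.36 in control cells, a difference of 0.97, and Coa4 differed by 0.63. Cox17, the copper chaperone, was well above background in the knockdown alone, so the filter fixed its place above 0 in these counts. No fold is given for Cox17, and with normexp background correction it differed by 0.26. The 4 measured factors of complex V had a median of -0.22. Fmc1, an assembly factor of the synthase, was the lowest of them, with 2.99 in knockdown cells and 4.10 in control cells, a difference of -1.11, while Atpif1, the inhibitor of the synthase, differed by -0.0048.

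Medians were -0.06 for 8 factors of complex I outside Ndufaf and -0.04 for 4 of complex II. The 7 genes of complex III, including its subunit Cyc1, had a median of -0.16. Nubpl and Foxred1 of complex I differed by -0.53 and -0.52, Sdhaf2 of complex II by 0.49 and Bcs1l of complex III by -0.53. Electron carriers and ubiquinone synthesis had a median of -0.12 over 14 genes, and 10 were below 0, where 54.3% of all measured genes were. Scaled to the array median, 7 were. The ubiquinone-binding Coq10b and Coq10a were the highest, at 1.07 and 0.77, and Pdss1 was the lowest, at -0.58. Coq10b was dim, with -1.84 in knockdown cells and -2.91 in control cells, and with normexp background correction it differed by 0.83.

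Of the 18 genes of the TCA cycle and pyruvate dehydrogenase, which supply NADH and succinate, 12 were below 0, where 54.3% of all measured genes were, with a median of -0.16. Scaled to the array median, 10 were. Idh2, the mitochondrial NADP-dependent isocitrate dehydrogenase, had 4.40 in knockdown cells and 5.48 in control cells, a difference of -1.08. Dlat, of pyruvate dehydrogenase, and Fh1, fumarase, differed by -0.72 and -0.61. Genes that maintain and transcribe mitochondrial DNA were below 0 in 13 of 14, against the same 54.3%, with a median of -0.36. Over the scalings the count ran from 11 to 13. The lowest were Mterf1a at -0.80, Polg2 at -0.65 and Twnk at -0.62, and Tfam, which packages that DNA, differed by -0.40.

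Nuclear regulators of respiratory genes had a median of -0.27 over 11 genes, with -0.90 for Nrip1 and -0.80 for Gabpa. Ppargc1a, the coactivator PGC-1alpha, was likewise well above background in the knockdown alone, and with normexp background correction it differed by 0.80. It is among the 11 genes of that median, and the filter fixed its place above 0. Mitochondrial mass markers, such as outer membrane channels and import proteins, had a median of -0.08 over 15 genes. Of these, 11 were below 0, where 54.3% of all measured genes were. Tomm70a, Phb2 and Hspa9 were the 3 lower by 0.5 or more, at -0.54, -0.53 and -0.51, where 19.1% of all measured genes were. Scaled to the array median, the median of the list was 0.0091 and 7 genes were below 0. In RNA from whole cultures, the number of mitochondria per cell and the RNA per mitochondrion cannot be told apart.

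**Figure D5:**
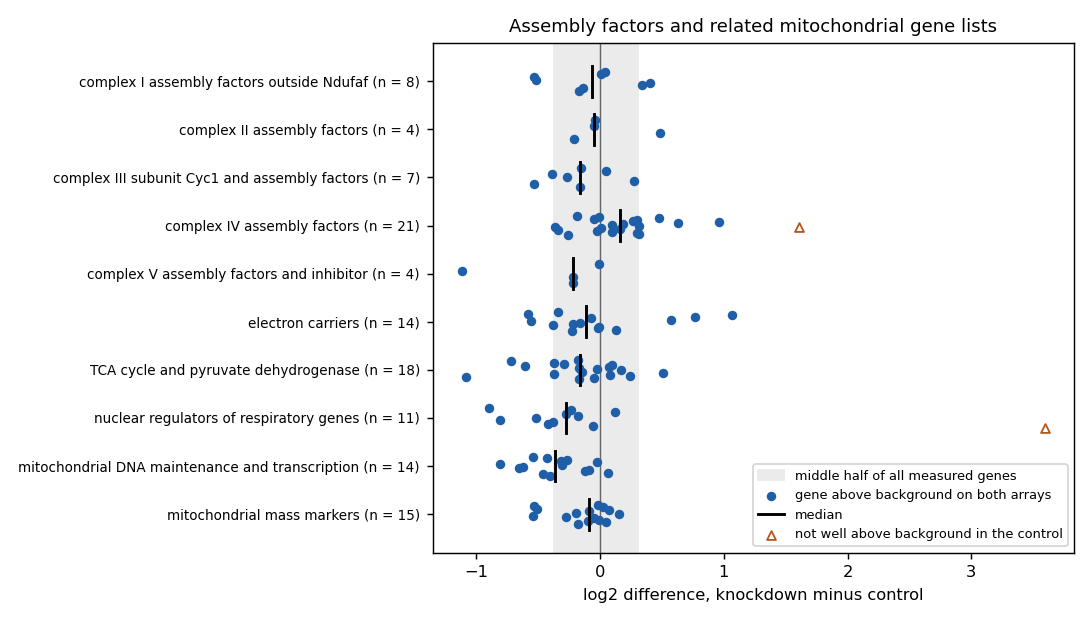
Log2 difference, knockdown minus control, of genes above background on at least 1 array in lists of assembly factors, electron carriers, the TCA cycle, regulators and mitochondrial maintenance (points, 1 per gene; black lines are medians). Open triangles mark Cox17 and Ppargc1a, whose control signal lay near background, so that their plotted difference depends on the background correction.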

How the data were processed

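Both samples were hybridised to 1-colour Agilent arrays, 1 array each, from 200 ng of total RNA labelled with Cy3. Per the submitters' processing notes, the deposited scanner files come from Agilent Feature Extraction 10.7.3.1, and per the file headers each spot is an intensity on a linear scale, with positions in mm9. The deposited value table holds the same intensity rounded, with scanner over table ratios from 0.995 to 1.005 and column medians of 27.8 for the knockdown and 28 for the control.

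Each array had 43020 spots that were not controls and no saturated spot. Outlier spots, 177 on the knockdown and 162 on the control array, were left out, none of them of a member. Levels are log2 processed intensity less that of the array's 75th percentile, 1255 for the knockdown and 1172 for the control. The probe with the highest mean level over both arrays stood for its gene, and a gene counted as measured if the scanner called that probe well above background on either array. No fold is given against a signal not well above background. Names came from RefSeq GRCm38.p6: accessions named 26055 probes, symbols 3195 and older symbols 930, and 9249 stayed unnamed. Of the 118 member probes, 116 matched by accession and 2 by symbol.

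The text gives values for core or catalytic subunits, the highest and lowest members of each complex, isoform families, Ndufaf genes, members at 2-fold or more, and up to 3 genes of each other list. Of the genes this rule names, 1 is not reported here. Members and lists were chosen with earlier results of these data known. Alternatives changed the background correction (normexp in limma 3.58.1, offset 50), the scaling, the probe rule, the filter and the source of values. R 4.3.3, Python 3.11.15, pandas 2.3.3 and numpy 2.4.6 were used, and the calculation was tested on simulated data. The number of arrays limits the precision.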

Additional observations from a re-analysis of the deposited data

How the results depend on the processing

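No paired analysis was possible because each group holds 1 array. Members were called higher or lower only where their sign held under every scaling, so no such call could reverse with the scaling. Of the 84 measured members, 60 kept their sign. The small medians moved with the scaling, and those of complexes I and V changed sign. The median of all genes moved as well, from -0.09 to 0.04. Scaling to the median or to another 75th percentile shifts every gene alike, so relative to all genes the medians stayed at -0.00067 for complex I, 0.098 for II, -0.099 for III, -0.076 for IV, -0.018 for V and 0.11 for Ndufaf. Scaled to the array median, the medians were 0.041 for complex I, 0.14 for II, -0.057 for III, -0.034 for IV, 0.024 for V and 0.15 for Ndufaf, and no subunit reached a log2 difference of 1 (0). With cyclic loess they were 0.034, 0.13, -0.073, -0.033, 0.030 and 0.12 in the same order, and again 0 reached 1. Quantile normalization gave 0.0029 for complex I, -0.074 for IV and -0.017 for V. With normexp, 0 subunits reached 1. Without a filter on dim probes, complex IV had -0.081. The number of subunits below 0 ran from 33 to 52 over the alternatives.

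The rest were chosen after seeing the data. With members at a mean level of 2 or higher only, and likewise without the tissue isoforms, complex IV had -0.056 and 0 subunits reached 0.5 or 1. The mean level includes the difference itself: with a control level of 2 or higher, complex IV had -0.081, 1 subunit (Cox7a1) reached 0.5 and 0 reached 1. No Ndufaf gene is left at a level of 2 or higher. With genes under newer names, Ndufaf had -0.039. Under the 9 other alternatives the 71 subunits at a mean level of 2 or higher stayed between -0.49 and 0.49. Ndufa4 is not among the subunits counted in this section, and over the scalings it ran from -0.62 to -0.49. With 1 array per group, differences between cultures cannot be told apart from the knockdown, and dim probes such as Cox6a2 depend on the background correction.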
